A study of Mus musculus with 26 samples.

Results

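The interferon-inducible GTPases and interferon regulatory factor (IRF) genes described here are Irf1, Irf7, Irf8, Gbp2, Gbp3, Irgm1, Irgm2, Igtp and Ifi47. They were taken by gene symbol from the platform annotation, which gave 9 of the 12393 genes on the array, on 11 of 22626 probe sets, with 2 probe sets each for Irf8 and Gbp2. S49 is a line of mouse T lymphoma cells. Its wild type (WT) dies under lasting high cyclic AMP (cAMP), and its deathless variant (D-) survives. D- and WT cells were treated with 8-CPT-cAMP, an analogue of cAMP that enters cells and switches on protein kinase A, for 2, 6 or 24 h, or were left untreated. The labelled dose is 100 mM, which may be a unit error. The groups were D- at 2, 6 and 24 h (3 arrays each), untreated D- (4 arrays), WT at 2, 6 and 24 h (3 arrays each) and untreated WT (4 arrays). The treated WT arrays are untreated by title but treated by source name and description, and the second reading was taken. Each genotype is 1 cell line, so a difference between D- and WT cannot be told apart from a difference between these particular lines. Replicates are labelled biological with no word on separate cultures, so a p-value here covers only sample-to-sample spread, which may be technical.

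Interferons bind cell-surface receptors, and Janus kinases there activate transcription factors that enter the nucleus. Interferon gamma signalling acts on promoters through the GAS element, and type I interferon signalling, as well as several IRF proteins, through the interferon-stimulated response element (ISRE). IRF1 is itself induced through GAS and in turn drives genes of the guanylate-binding protein (GBP) and immunity-related GTPase (IRG) families, which attack the vacuoles of intracellular pathogens.

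The 7 promoter stretches below are shown because the genes differ in when they moved and in which of these elements their promoters hold. Each is the sequence of the 200 bases before the RefSeq transcription start (build GRCm38.p6), 5′ to 3′ on the gene's strand. Capitals mark matches to a GAS (TTCNNNGAA) or to the core of an ISRE (GAAANNGAAA, on either strand, so that TTTC repeats are the core read on the other strand).
Irf1 chr11:53769814-53770013 (+): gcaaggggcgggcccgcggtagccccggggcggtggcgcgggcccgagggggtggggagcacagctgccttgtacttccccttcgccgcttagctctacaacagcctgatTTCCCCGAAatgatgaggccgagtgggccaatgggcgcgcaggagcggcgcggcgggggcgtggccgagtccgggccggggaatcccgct
Irf8 chr8:120736158-120736357 (+): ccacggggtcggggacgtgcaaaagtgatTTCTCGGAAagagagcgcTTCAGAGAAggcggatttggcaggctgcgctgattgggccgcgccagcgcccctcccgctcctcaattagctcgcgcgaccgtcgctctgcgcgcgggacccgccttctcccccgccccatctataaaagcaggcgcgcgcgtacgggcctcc
Igtp chr11:58199356-58199555 (+): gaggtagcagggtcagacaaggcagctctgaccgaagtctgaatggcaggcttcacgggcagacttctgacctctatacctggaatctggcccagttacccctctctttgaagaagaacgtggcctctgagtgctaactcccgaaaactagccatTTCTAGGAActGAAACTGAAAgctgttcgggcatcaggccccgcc
Irgm2 chr11:58214777-58214976 (+): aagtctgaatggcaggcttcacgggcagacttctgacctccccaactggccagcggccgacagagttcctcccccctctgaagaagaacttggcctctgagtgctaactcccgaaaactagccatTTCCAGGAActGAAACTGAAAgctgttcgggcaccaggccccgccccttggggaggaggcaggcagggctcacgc
Irgm1 chr11:48871421-48871620 (-): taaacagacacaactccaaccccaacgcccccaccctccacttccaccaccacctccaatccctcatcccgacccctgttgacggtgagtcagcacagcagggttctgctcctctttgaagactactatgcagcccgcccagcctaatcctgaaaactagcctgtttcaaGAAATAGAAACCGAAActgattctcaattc
Gbp2 chr3:142620463-142620662 (+): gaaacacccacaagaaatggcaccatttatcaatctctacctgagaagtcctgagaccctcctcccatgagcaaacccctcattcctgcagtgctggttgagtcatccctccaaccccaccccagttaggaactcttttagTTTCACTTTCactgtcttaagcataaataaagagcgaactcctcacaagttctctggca
Gbp3 chr3:142559844-142560043 (+): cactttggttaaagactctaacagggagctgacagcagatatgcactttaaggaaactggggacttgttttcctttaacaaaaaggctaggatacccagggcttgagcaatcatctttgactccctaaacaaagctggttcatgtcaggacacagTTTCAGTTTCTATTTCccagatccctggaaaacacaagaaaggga
In Igtp and in Irgm2 the GAS match is followed by the ISRE core with 2 bases between them.

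Over the whole RefSeq window, 250 bases before to 50 after the start, the ISRE core was found in 5 of the 9 genes (Gbp2, Gbp3, Irgm1, Irgm2 and Igtp) and in 3.44% of 32851 mouse promoters. A GAS match was found in 4 (Irf1, Irf8, Irgm2 and Igtp), against 8.3% of all promoters. Irf8 held 2 GAS matches, and the 2 core matches of Gbp3 overlap each other, as do the 2 of Irgm1. The palindromic cAMP response element TGACGTCA was in none of the 9 windows and in 1.79% of all promoters, while its half-site TGACG was in 2 (Irf7 and Irgm1), against 20.8%. Igtp and Irgm2 are neighbours on chromosome 11, and 244 of 270 aligned positions of their promoter windows were identical (90.4%). Irf1, Irf8 and Gbp3 each have a second listed promoter with no match to these motifs. A match describes letters in the window and says nothing about binding.

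**Figure D1:**
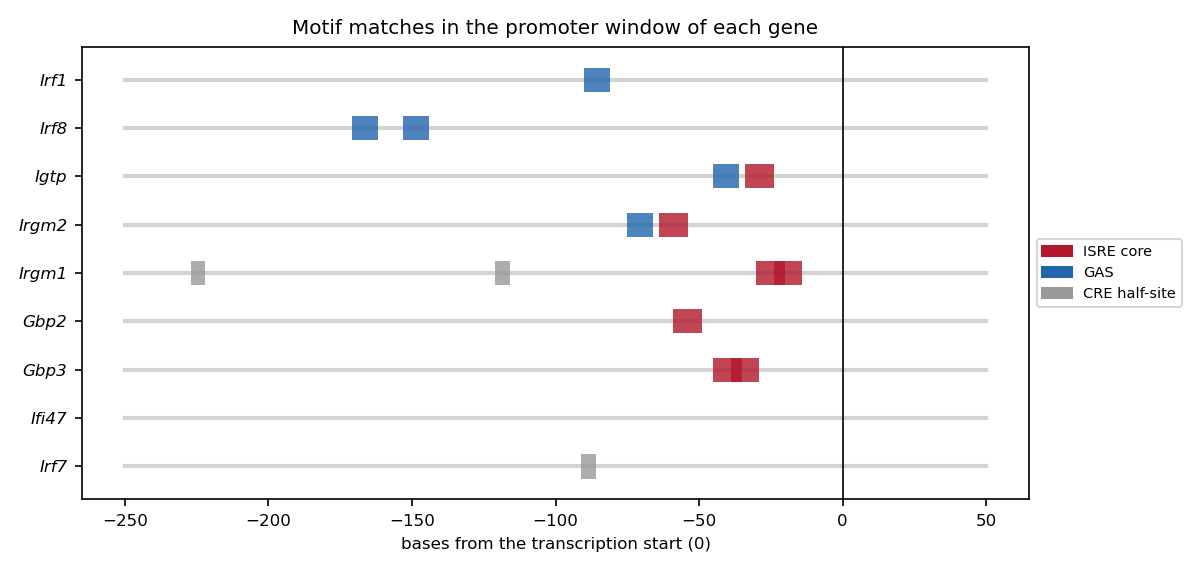
Position of each motif match (coloured bars) in bases from the transcription start, from 250 before to 50 after it, for the 9 genes, one line per gene. GAS matches lie in Irf1, Irf8, Igtp and Irgm2, ISRE cores in Igtp, Irgm2, Irgm1, Gbp2 and Gbp3, and Ifi47 has neither.

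All levels are log2 of the deposited GCRMA intensity, and changes are differences of group means on that scale with the standard error (SE) of a limma fit to all 26 arrays. A gene was called where its limma p, adjusted by Benjamini-Hochberg over all 12724 probe sets tested, was under 0.05. A group mean under log2 5 (intensity 32) was treated as too dim to measure, so a change from it is given as at least the distance of the brighter mean above 5. The brighter probe set stands for Irf8 and Gbp2 unless stated. In these bulk samples, fewer cells of a kind and less RNA per cell cannot be told apart. After subtraction of group means the arrays fell into 2 clusters that cut across every group. Cluster 1 (10 arrays) has untreated replicates 1 and 2 and treated replicate 1 of either line, and cluster 2 has the other 16. The clusters were drawn from the spread of these same arrays, so arrays of 1 cluster are alike by choice. Adjusted p within cluster 2, with 2 arrays per group, may therefore be too small. Cluster 1 has 1 array per treated group, so only sizes are given within it. The gap between the 3' and the 5' Gapdh control, which RNA breakdown widens, ran from -0.25 to -0.02 (median -0.15) in cluster 1 and from -0.09 to 0.27 (median -0.01) in cluster 2. Its part in the results below was not tested. Of 12 measured T cell markers, 10 or 11 had a group mean of 5 or more in every group, while 0 of 5 dendritic and 0 of 5 natural killer cell markers did. The counts were 2 to 4 of 9 for B cell markers, 2 to 4 of 12 for myeloid markers (Csf1r and S100a9 in every group) and 1 to 2 of 7 for stromal markers. The stromal marker Pdgfrb had means of 4.03 in D- and 6.42 in WT at 6 h, against 3.29 in untreated D- and 3.52 in untreated WT. It was called in WT at 6 h (limma adjusted p = 1.42e-06) and for the D- minus WT response there (adjusted p = 0.0489). Acta2, the stromal marker at 5 or more in every group, was not called at 6 h. Its changes there were -0.14 in D- and 0.10 in WT (limma adjusted p = 0.788 and 0.846), and it rose in WT at 24 h, by 1.47. The part of Pdgfrb in the 6 h results was not tested.

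Irf1 encodes the transcription factor that links interferon gamma to many of its late target genes. In D- cells it measured 8.60, 8.48, 8.39 and 8.48 untreated, 10.37, 9.69 and 9.44 at 2 h, 9.04, 8.36 and 8.54 at 6 h, and 8.53, 8.62 and 8.84 at 24 h. In WT cells it measured 8.87, 8.75, 8.52 and 8.42 untreated, 10.21, 11.32 and 11.75 at 2 h, 9.34, 10.19 and 10.73 at 6 h, and 9.0, 10.12 and 10.16 at 24 h. Every array at 2 h lay above every untreated array of its line, but by 6 and 24 h the D- arrays overlapped the untreated ones while the WT arrays did not. Irf1 rose by 1.34 ± 0.34 at 2 h in D- (SE, limma adjusted p = 0.00553) and then fell by 1.19 between 2 and 6 h (SE 0.36, adjusted p = 0.0208). That fall was not called without D- 2 h replicate 1 or D- 6 h replicate 2 or 3 (adjusted p between 0.0665 and 0.106). At 6 and 24 h its D- changes were 0.16 and 0.18 (adjusted p = 0.774 and 0.748). WT Irf1 was still higher than untreated at 6 h, by 1.45 ± 0.34 (adjusted p = 0.00184), and at 24 h, by 1.12 ± 0.34 (adjusted p = 0.00769). The WT 24 h call was lost without replicate 2 or without replicate 3 of that group (adjusted p = 0.0505 and 0.053).

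Irf8, an IRF known for its roles in myeloid and B cell development, kept its higher level. D- cells gave 7.10, 7.67, 7.89 and 7.36 untreated, 9.70, 9.64 and 9.29 at 2 h, 10.42, 10.30 and 10.22 at 6 h, and 11.63, 11.65 and 11.74 at 24 h. WT cells gave 7.33, 7.33, 8.06 and 7.90 untreated, 9.80, 11.45 and 11.70 at 2 h, 10.37, 11.49 and 11.29 at 6 h, and 10.61, 11.60 and 11.28 at 24 h. In D- the 4 groups stood in the order of time with no overlap between neighbours, whereas in WT the 3 treated groups overlapped each other and all lay above untreated. The D- change was 2.04 ± 0.35 at 2 h, 2.81 ± 0.35 at 6 h and 4.17 ± 0.35 at 24 h (SE, limma adjusted p = 0.000147, 3.06e-06 and 8.86e-09). In WT it was 3.33 ± 0.35, 3.40 ± 0.35 and 3.51 ± 0.35 at the same times (adjusted p = 2.69e-07, 1.9e-07 and 3.26e-08). From 6 to 24 h Irf8 rose by a further 1.36 ± 0.37 in D- (adjusted p = 0.0155, and 0.0547 without D- 6 h replicate 3), against a change of 0.11 ± 0.37 in WT (adjusted p = 0.86).

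The dimmer Irf8 probe set gave another course in WT. Its means were 4.61 ± 0.62 untreated (SD, n = 4), then 7.11 ± 0.18, 7.96 ± 0.19 and 8.83 ± 0.19 at 2, 6 and 24 h in D- (SD, n = 3 each). In WT they were 5.27 ± 0.28 untreated (SD, n = 4), then 9.08 ± 1.11, 8.35 ± 0.58 and 7.73 ± 0.18 (SD, n = 3 each). Within D-, both probe sets were highest at 24 h. In WT the dimmer one was highest at 2 h, while the brighter one had overlapping arrays at 2, 6 and 24 h.

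Irf7, the IRF best known for amplifying type I interferon, stayed dim. Its levels ran from 2.38 to 4.24 over the 13 D- arrays and from 2.50 to 2.93 over the 13 WT arrays. All 26 arrays were under 5, so it was not tested and carries no fold.

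Irgm2 and Igtp encode regulatory IRG proteins of the endomembrane system and were among the genes called at 2 h in both lines. D- cells had Irgm2 at 5.09, 5.41, 5.46 and 5.46 untreated, 8.40, 7.94 and 7.46 at 2 h, 7.81, 6.63 and 7.01 at 6 h, and 5.51, 6.30 and 6.54 at 24 h. WT cells had Irgm2 at 4.79, 4.71, 4.83 and 4.62 untreated, 7.48, 9.90 and 10.83 at 2 h, 6.85, 9.19 and 9.08 at 6 h, and 6.11, 7.53 and 8.04 at 24 h. No treated array of either line overlapped the untreated arrays of that line. D- Irgm2 rose by 2.58 ± 0.61 at 2 h (SE, limma adjusted p = 0.00332) and by 1.80 ± 0.61 at 6 h (adjusted p = 0.0283), and its change of 0.76 ± 0.61 at 24 h was not called (adjusted p = 0.376). The D- 6 h call was lost on leaving out any of 3 arrays (D- untreated replicate 1, D- 6 h replicate 1 or 3), with adjusted p between 0.0607 and 0.124. WT Irgm2 rose by at least 4.41 at 2 h, 3.37 at 6 h and 2.22 at 24 h (adjusted p = 5.16e-06, 7.36e-05 and 0.00149).

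Igtp measured 7.30, 7.32, 7.49 and 7.59 in untreated D- cells, 9.72, 9.50 and 8.90 at 2 h, 10.45, 9.59 and 9.02 at 6 h, and 8.36, 8.82 and 9.03 at 24 h. WT Igtp was 7.24, 6.85, 7.03 and 7.28 untreated, 9.20, 10.97 and 11.998 at 2 h, 9.62, 11.68 and 11.60 at 6 h, and 8.17, 10.41 and 10.65 at 24 h. Again no treated array overlapped the untreated ones of its line. In D- the rise was 1.95 ± 0.58 at 2 h (SE, adjusted p = 0.0182) and 2.26 ± 0.58 at 6 h (adjusted p = 0.00497), and the 24 h change of 1.31 ± 0.58 was not called (adjusted p = 0.0896). The D- 2 h call was lost without D- 2 h replicate 1 (adjusted p = 0.0734) or replicate 2 (adjusted p = 0.0626). WT Igtp rose by 3.62 ± 0.58, 3.86 ± 0.58 and 2.64 ± 0.58 at 2, 6 and 24 h (adjusted p = 7.04e-05, 2.33e-05 and 0.000581). Over the 26 arrays the levels of Igtp and Irgm2 correlated with r = 0.949, a description of arrays that share treatment groups and array clusters.

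Irgm1, the third regulatory IRG gene, was called in WT cells only at 2 and 6 h, and was not called in D- cells. Its levels in D- cells were 8.00, 8.64, 8.00 and 7.94 untreated, 8.20, 7.74 and 7.58 at 2 h, 9.15, 8.18 and 8.48 at 6 h, and 7.95, 8.36 and 8.87 at 24 h. In WT cells they were 7.80, 7.77, 7.32 and 7.39 untreated, 7.95, 8.97 and 10.01 at 2 h, 7.87, 9.64 and 9.44 at 6 h, and 8.21, 8.42 and 8.70 at 24 h. The D- groups overlapped throughout. WT Irgm1 rose by 1.41 ± 0.40 at 2 h (SE, adjusted p = 0.012) and by 1.41 ± 0.40 at 6 h (adjusted p = 0.00821) with replicate 1 just above the highest untreated array each time. Without WT 2 h replicate 3 the 2 h change was 0.89 (adjusted p = 0.138), and without WT 6 h replicate 2 or 3 the 6 h change was 1.09 or 1.19 (adjusted p = 0.0716 and 0.0554). At 24 h every WT array lay above every untreated one, though the change was not called in the fit to all arrays. It was called with array weights (limma adjusted p = 0.000564), with only the groups compared in the fit (0.88, adjusted p = 0.0041) and within cluster 2 (1.21, adjusted p = 0.00206).

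Ifi47, an IRG effector GTPase, moved late. D- arrays gave 8.38, 8.46, 8.76 and 8.49 untreated, 7.88, 7.81 and 7.43 at 2 h, 10.79, 9.75 and 9.50 at 6 h, and 9.03, 9.49 and 9.46 at 24 h. WT arrays gave 8.65, 8.31, 8.53 and 8.49 untreated, 7.53, 8.56 and 9.90 at 2 h, 9.89, 11.87 and 12.06 at 6 h, and 9.14, 10.60 and 10.70 at 24 h. At 2 h the D- arrays lay below all untreated D- arrays and the WT arrays fell on either side of untreated WT, but the changes, -0.82 ± 0.49 in D- and 0.17 ± 0.49 in WT, were not called (SE, adjusted p = 0.276 and 0.859). The D- fall was called within array cluster 2 (-1.01, adjusted p = 0.0341) and with only the groups compared in the fit (adjusted p = 0.00479). At 6 h Ifi47 was higher in both lines, by 1.49 ± 0.49 in D- (adjusted p = 0.0238, and 0.138 without D- 6 h replicate 1) and by 2.78 ± 0.49 in WT (adjusted p = 0.000128). At 24 h it was higher by 1.65 ± 0.49 in WT (adjusted p = 0.00674), and its D- change of 0.81 ± 0.49 was not called (adjusted p = 0.224).

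Gbp2 and Gbp3 encode guanylate-binding proteins, large GTPases that coat pathogen vacuoles, and both genes peaked at 6 h. D- Gbp3 was 5.25, 5.21, 4.95 and 5.14 untreated, 5.09, 5.24 and 4.81 at 2 h, 8.76, 7.88 and 6.87 at 6 h, and 5.16, 4.72 and 5.30 at 24 h. WT Gbp3 was 4.74, 4.59, 4.93 and 4.85 untreated, 4.89, 5.26 and 5.55 at 2 h, 6.55, 8.51 and 8.83 at 6 h, and 5.21, 5.36 and 5.81 at 24 h. The 6 h arrays of each line stood above all its other arrays, and in D- the 2 and 24 h arrays overlapped the untreated ones. Gbp3 rose by 2.71 ± 0.40 at 6 h in D- (SE, adjusted p = 2.4e-05) and by at least 2.96 in WT (adjusted p = 2.25e-06). It then fell by 2.78 in D- (SE 0.42, adjusted p = 0.000105) and by 2.51 in WT (SE 0.42, adjusted p = 0.000103) between 6 and 24 h.

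For Gbp2 the D- arrays read 2.87, 2.83, 3.05 and 3.01 untreated, 2.89, 3.05 and 2.87 at 2 h, 6.78, 5.11 and 5.09 at 6 h, and 2.87, 2.84 and 2.94 at 24 h. The WT arrays read 2.92, 2.95, 2.86 and 2.86 untreated, 2.88, 3.02 and 3.17 at 2 h, 4.86, 7.77 and 7.94 at 6 h, and 2.87, 5.62 and 5.66 at 24 h. Untreated and 2 h cells of both lines were thus far under 5, and at 24 h replicates 2 and 3 of WT stayed above 5 while replicate 1 and all D- arrays were back near the untreated level. The WT group mean at 24 h was therefore under 5 and was not called, but without WT 24 h replicate 1 it was (adjusted p = 0.000231). At 6 h Gbp2 rose by at least 0.66 in D- (adjusted p = 0.00144). The other Gbp2 probe set reached 8.42, 6.17 and 5.15 at 6 h in D- and 5.09, 9.19 and 9.06 in WT, which gives at least 1.58 in D- (adjusted p = 0.000772) and at least 2.78 in WT (adjusted p = 4.79e-05). The WT fall between 6 and 24 h was called (adjusted p = 0.0141), though not without WT 6 h replicate 2 or 3 or WT 24 h replicate 1 (adjusted p between 0.0844 and 0.113).

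**Figure D2:**
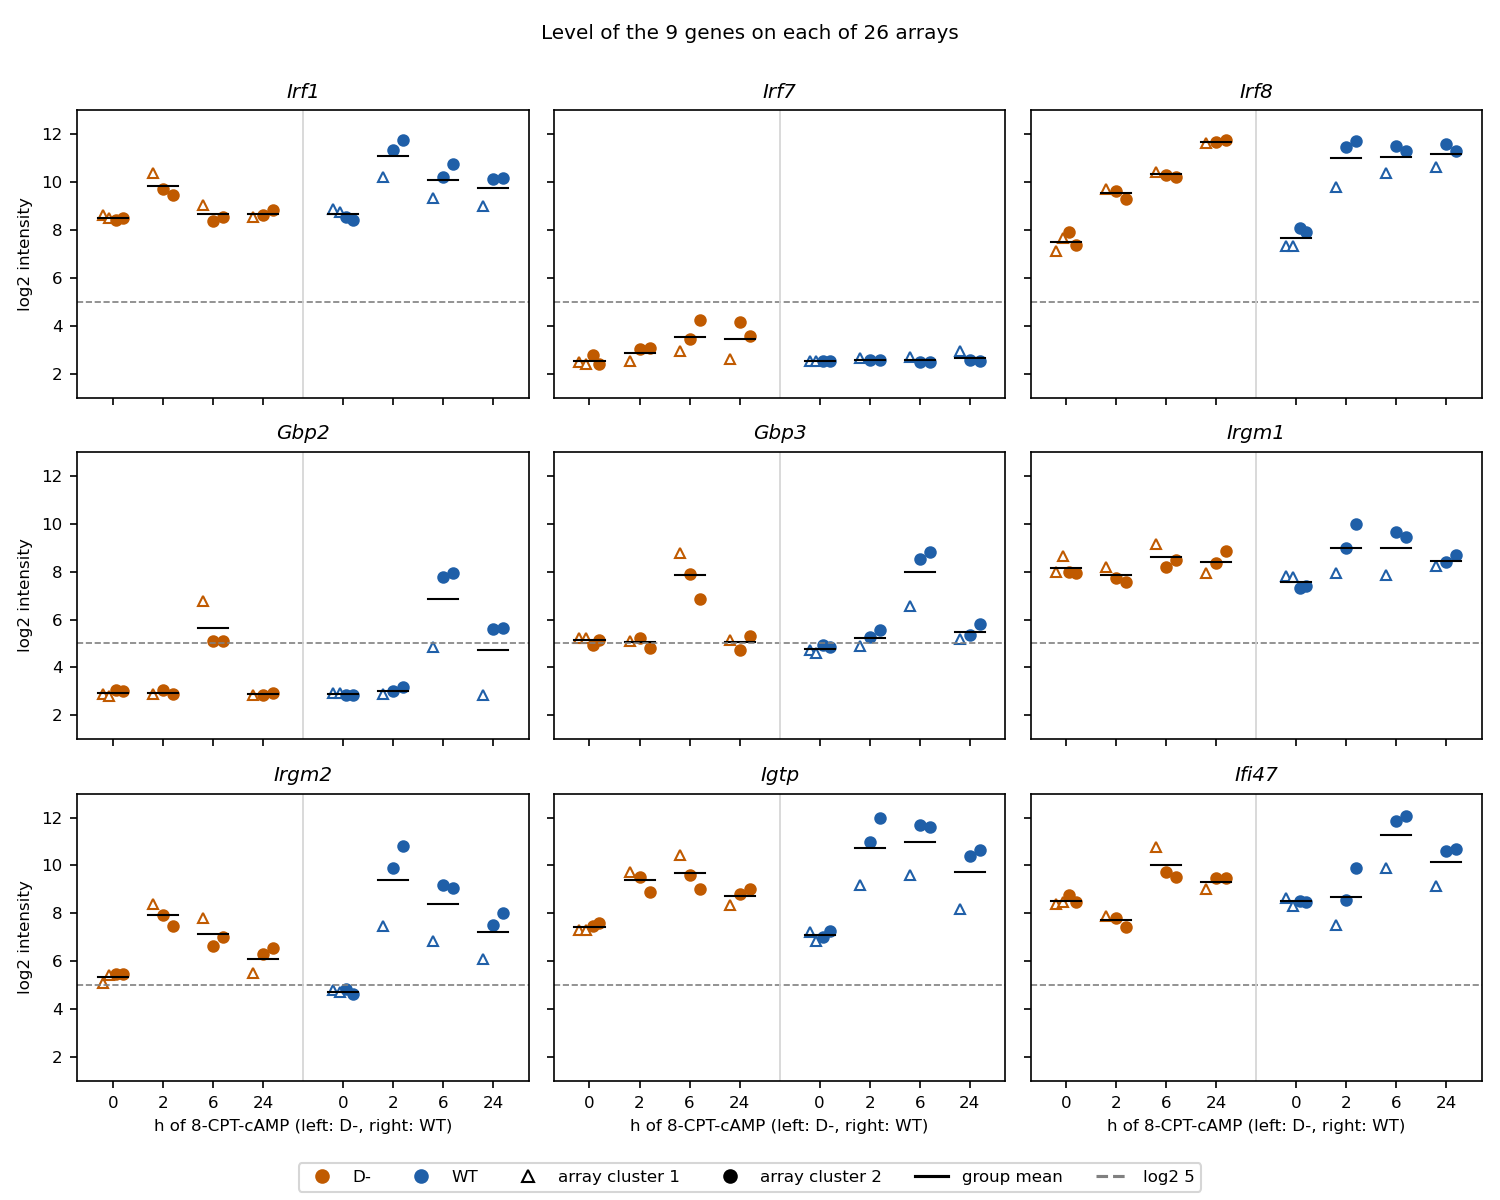
Log2 intensity (y axis) of the 9 genes on each of 26 arrays by hours of treatment (x axis), D- on the left and WT on the right of each panel, with open triangles for array cluster 1, filled circles for cluster 2, a bar at each group mean and a dashed line at log2 5. Irf1, Irf8, Irgm2 and Igtp stand above untreated at 2 h, Gbp2 and Gbp3 peak at 6 h, Irf7 stays under 5, and the triangle is the lowest treated WT value in all 8 tested genes.

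Counted together, 4 of the 8 tested genes rose at 2 h in D- (Irf1, Irf8, Irgm2 and Igtp), where 9.0% of all genes were called higher. At 6 h in D-, 6 rose (Irf8, Gbp2, Gbp3, Irgm2, Igtp and Ifi47) against 16.1% of all genes, and at 24 h only Irf8 did, against 16.9%. In WT, 5 rose at 2 h (the same 4 and Irgm1) against 11.2%, and all 8 at 6 h against 19.0%. At 24 h 5 rose in WT (Irf1, Irf8, Irgm2, Igtp and Ifi47) against 26.2%. A gene was tested only if it reached log2 5 on at least 3 arrays. Gbp2 met this through treated arrays alone, so its place among the genes that rose at 6 h partly follows from the filter. Irf7 never reached 5 and is not among the 8. The percentages of all genes rest on the same filter. With all arrays none of the 8 was called lower than untreated at any time, where 13.2%, 15.5% and 17.6% of all genes were lower at 2, 6 and 24 h in D-, and 13.8%, 19.0% and 27.4% in WT. The median log2 change of the 8 was 0.67, 2.03 and 0.50 in D- and 1.93, 3.29 and 1.74 in WT at 2, 6 and 24 h, with medians over all genes between -0.02 and 0.00.

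These counts changed with the array cluster. Within cluster 1, 4, 6 and 1 genes were called in either direction at 2, 6 and 24 h in D- (5.89%, 7.09% and 6.91% of all genes were), and 4, 5 and 4 in WT (5.62%, 11.7% and 30.4%). Within cluster 2 the counts were 5, 6 and 4 in D- (22.1%, 35.1% and 41.2% of all genes), and 5, 8 and 7 in WT (27.2%, 39.3% and 55.9%). The 5 in D- at 2 h were 4 that rose and Ifi47, which fell. The WT change at 6 h within cluster 1 was 0.53 for Irf1 and 0.09 for Irgm1, and at 24 h it was 0.19 for Irf1 and 0.66 for Ifi47.

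The highest group means also differed between genes. Irf1 stood highest in WT at 2 h, and the next groups down, WT 6 h, D- 2 h and WT 24 h, each overlapped the group above, while WT 24 h did not overlap the next below, D- 24 h. On its brighter probe set Irf8 stood highest in D- at 24 h, with no overlap with the next group, WT at 24 h. On the dimmer one the highest mean was 9.08 in WT at 2 h, against 8.83 in D- at 24 h. Gbp2 and Gbp3 stood highest in WT at 6 h and then D- at 6 h, which overlapped.

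The steps between times separated 2 courses. From 2 to 6 h, Gbp2, Gbp3 and Ifi47 rose in D- (14.3% of all genes called higher) and in WT (12.5%), and Irf1 fell in D- (9.13% called lower). In WT, Irf1 changed by -1.003 ± 0.36 over that step, which was not called with all arrays (SE, adjusted p = 0.0507) but was within cluster 2 (-1.07, adjusted p = 0.00136), and its adjusted p over all alternatives ran from 0.00136 to 0.242. From 6 to 24 h, Gbp2 and Gbp3 fell in D- (8.02% called lower) and in WT (16.9%), and Irf8 rose in D- (7.98% called higher). The 4 genes called at 2 h in both lines are those whose promoter window holds a GAS match, and Gbp2, Gbp3 and Ifi47, first called at 6 h, have none. Irgm1, called at 2 h in WT only, has none either. This correspondence was seen after the values and was not tested.

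**Figure D3:**
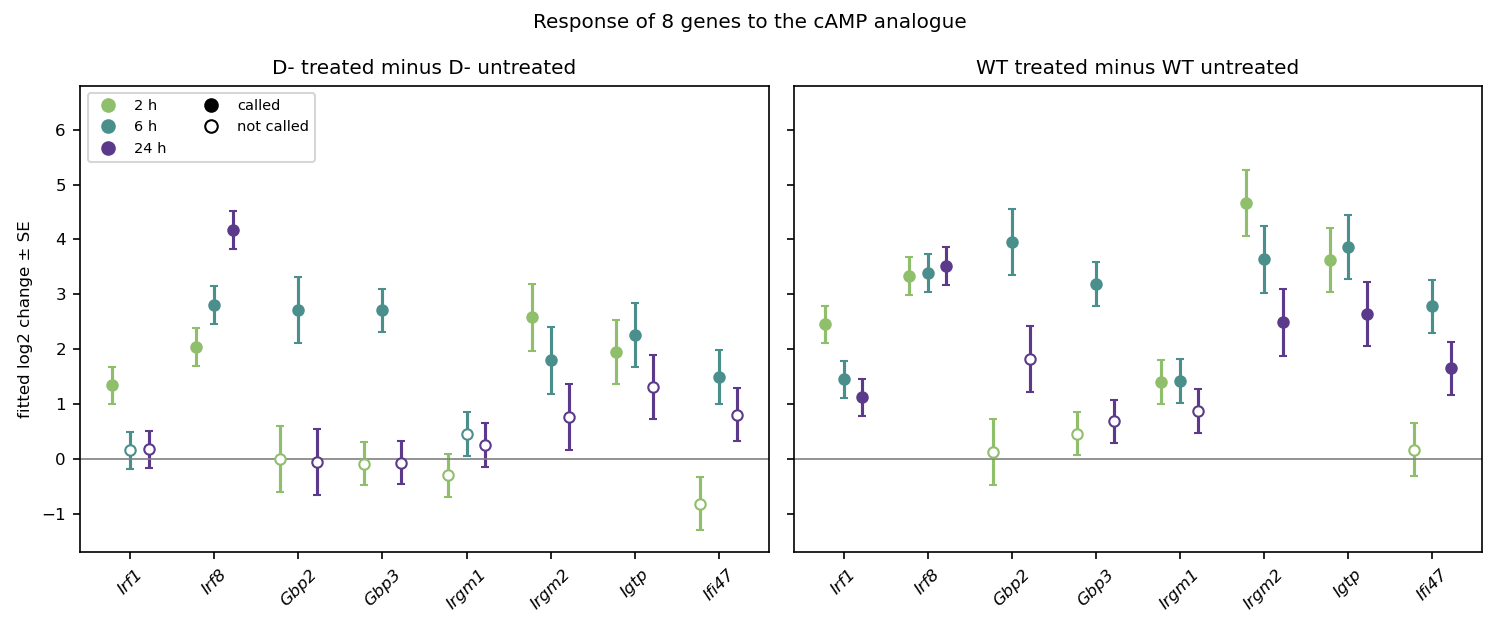
Fitted log2 change from untreated (y axis, with SE) of the 8 tested genes (x axis) at 2, 6 and 24 h in D- (left) and WT (right), filled where called. In D-, Irf8 reaches 4.17 at 24 h while Gbp2 and Gbp3 are near 0 at 2 and 24 h, and fitted values from a group mean under 5 are not bounds.

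Before treatment none of the 8 tested genes was called between the lines, while 4.92% of all genes were called between untreated D- and untreated WT. In 4 genes (Gbp3, Irgm1, Irgm2 and Igtp) every untreated D- array lay above every untreated WT array, as was the case for 4.76% of all genes. Irgm2 was at 5.09 to 5.46 in D- against 4.62 to 4.83 in WT, and Irgm1 at 7.94 to 8.64 in D- against 7.32 to 7.80 in WT. The other separations were slight. The lowest D- and the highest WT array were at 4.945 and 4.930 for Gbp3, both under 5, and at 7.298 and 7.283 for Igtp. The fitted differences were at least 0.36 for Irgm2 (adjusted p = 0.769) and 0.58 ± 0.37 for Irgm1 (SE, adjusted p = 0.588).

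The response of the 2 lines was compared directly, as the D- change minus the WT change. With all arrays, 0 of 8 genes were called at 2 h (0.242% of all genes were), at 6 h (0.592%) or at 24 h (12.3%). Gbp2 had every group mean under 5 at 2 and 24 h and is left out at those times. The fitted differences were negative for the other 7 genes at 2 h, from -2.09 to -0.55, and for 8 of 8 at 6 h, from -1.84 to -0.48. At 24 h they were negative for 6 of 7, from -1.73 to -0.63, with Irf8 at 0.66 ± 0.49 (SE, adjusted p = 0.456). The untreated WT means of Gbp3 and Irgm2, and both untreated means of Gbp2, were under 5, so the differences of these genes are not exact sizes. Irgm2 had the widest gap at 2 h, -2.09 ± 0.86 (adjusted p = 0.732).

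The comparison was also made within each array cluster. Cluster 2 holds 2 arrays per group that are alike by choice, so its adjusted p may be too small. Within cluster 2 the response was smaller in D- with a call for 5 genes at 2 h (Irf1, Irf8, Irgm1, Irgm2 and Igtp, with 0.794% of all genes called). At 6 h 6 were called there (Irf1, Gbp2, Irgm1, Irgm2, Igtp and Ifi47; 1.98%) and at 24 h 4 (Irf1, Gbp2, Irgm2 and Igtp; 17.8%). Igtp at 2 h differed by -2.66 ± 0.42 within cluster 2 (SE, adjusted p = 0.0122) and by 0.25 within cluster 1. Igtp at 6 h differed by -2.72 ± 0.42 within cluster 2 (adjusted p = 0.00526) and by 0.57 within cluster 1. The difference between the clusters was not tested. Within cluster 1, with 1 treated array per group, none of the 8 was called at any time (0.0134%, 0% and 0.0538% of all genes at 2, 6 and 24 h), and the sign was positive for 4 of 7 genes at 2 h, leaving out Gbp2, and for 6 of 8 at 6 h. Removing 1 array from the whole set also moved 2 calls, Irf8 at 2 h to -1.88 (adjusted p = 0.0356) without WT 2 h replicate 1 and Gbp2 at 24 h (adjusted p = 0.00957, against D- and untreated levels under 5) without WT 24 h replicate 1.

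**Figure D4:**
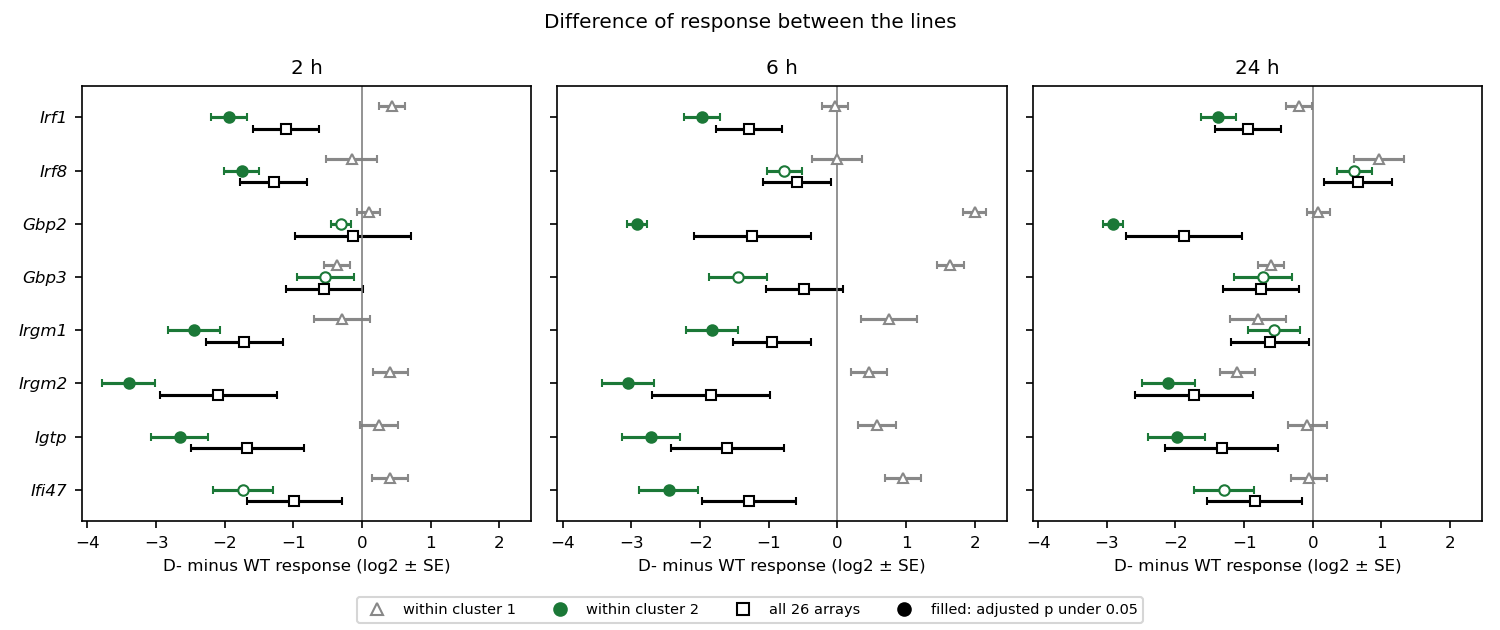
D- change minus WT change (x axis, log2 with SE) of the 8 tested genes (rows) at 2, 6 and 24 h, for all 26 arrays (squares), within cluster 1 (triangles) and within cluster 2 (circles), filled where the adjusted p was under 0.05. Circles lie left of 0 for all 8 genes at 2 and 6 h, while 5 of 8 triangles at 2 h and 6 of 8 at 6 h lie right of 0. Values of Gbp2, and those that use the untreated WT mean of Gbp3 or Irgm2, rest on means under log2 5 and are not exact sizes.

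Replicate 1 is the cluster 1 array of each treated group. Among treated WT arrays, replicate 1 was the lowest of 3 for 8 of 8 genes at 2, at 6 and at 24 h, where it was lowest for 53.6%, 44.3% and 46.2% of all genes. Its median distance below the mean of the other 2 was -1.62, -2.05 and -1.32. In D- cells replicate 1 was the highest of 3 for 6 of 8 genes at 2 h (32.1% of all genes) and for 8 of 8 at 6 h (37.1%), and the lowest for 6 of 8 at 24 h (44.4%). Crem, a direct cAMP target, measured 9.93, 10.38 and 10.64 in D- and 11.10, 10.09 and 9.46 in WT at 2 h, so replicate 1 was the lowest in D- and the highest in WT. In D- at 24 h it was 5.53, 8.59 and 7.68, with replicate 1 the lowest. What set the replicates 1 apart was not tested.

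Interferon gamma, the ligand that acts through GAS, followed the split of the WT arrays. Ifng read 2.64, 2.51, 2.70 and 2.70 in untreated D- cells, 4.44, 3.05 and 2.96 at 2 h, 2.64, 2.68 and 2.49 at 6 h, and 2.64, 2.62 and 2.93 at 24 h. WT cells read 2.64, 2.67, 2.67 and 2.67 untreated, 3.76, 7.89 and 6.78 at 2 h, 2.63, 6.40 and 6.38 at 6 h, and 2.62, 4.73 and 4.94 at 24 h. It passed log2 5 on 4 arrays, replicates 2 and 3 of WT at 2 and at 6 h, and on no D- array. Ifng met the filter for testing through those arrays alone, so its calls in WT partly follow from the filter. Ifng was called higher in WT at 2 h, with a mean of 6.14 against 2.66 untreated (adjusted p = 0.00241), and at 6 h, with a mean of 5.14 (adjusted p = 0.019), and the D- group means never reached 5. The D- minus WT difference at 2 h was not called with all arrays (adjusted p = 0.766), but was called within cluster 2 (-4.36, adjusted p = 0.000131). Within cluster 1 it was 0.76, and most group means were under 5. Ifng had the most similar pattern to Irf1 among 7427 genes outside the 9, with Pearson r = 0.909 and Spearman rho = 0.666 over 26 arrays. Without the 2 arrays of highest Ifng, r was 0.856. Fbxo9 (r = 0.9) and Sntb2 (r = 0.892) came next after Ifng over the 26 arrays. The arrays share treatment groups and clusters. Ifnb1, the interferon beta gene, was between 3.64 and 4.01 on all arrays.

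**Figure D5:**
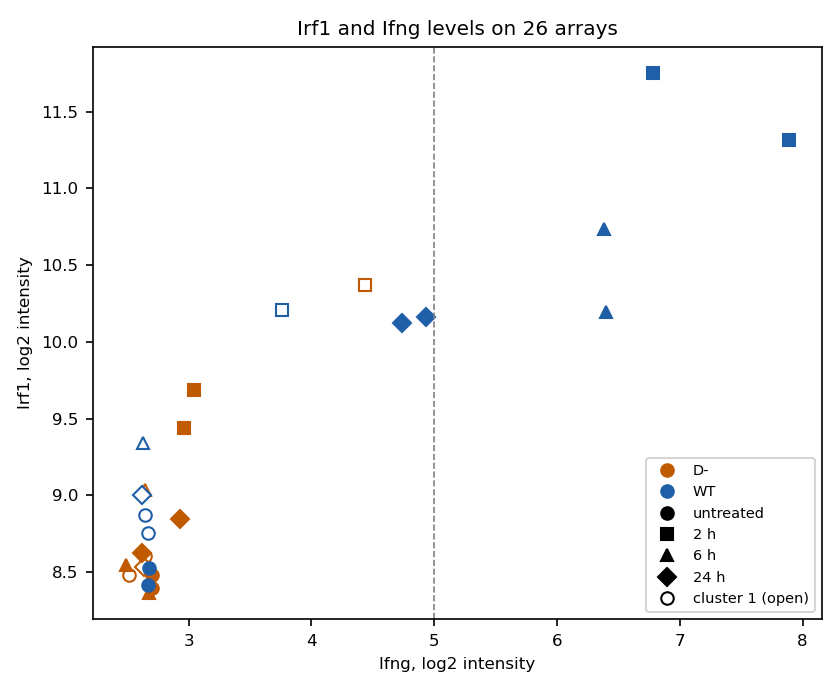
Irf1 (y axis) against Ifng (x axis) log2 intensity on 26 arrays, D- orange and WT blue, marker shape by time and open for array cluster 1, with a dashed line at log2 5. The 4 arrays right of the line are WT at 2 and 6 h with Irf1 between 10.19 and 11.75, while the 3 D- arrays at 2 h have Irf1 from 9.44 to 10.37 with Ifng under 5.

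The same measure of likeness was taken for the other genes, again over genes outside the 9. Among the 9 themselves r was 0.949 for Irgm2 and Igtp, 0.907 for Gbp2 and Gbp3, and 0.902 for Irf1 and Irgm2. Irf8 was closest to Pld3 (r = 0.953), Ifnar1 (r = 0.951) and Fyb (r = 0.95). Ifi47 was closest to Parp14 (r = 0.916), Gbp6 (r = 0.916) and Tap1 (r = 0.908), all known interferon-inducible genes. For Gbp2 the 3 closest were Arfgap3 (r = 0.882), Gbp2b (r = 0.879) and Anxa7 (r = 0.879). Gbp3 was closest to Ubxn4 (r = 0.868), Gbp2b (r = 0.868) and Cnih4 (r = 0.861). Gbp2b is a GBP gene next to Gbp2 and Gbp3 on chromosome 3. Its group mean passed log2 5 only in WT at 6 h, at 5.06. Outside the 9, Irgm2 was closest to Ncoa3 (r = 0.897), Igtp to Ube2b (r = 0.927) and Irgm1 to Tank (r = 0.761). All are correlations over the same 26 arrays.

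Other GBP and IRG genes with an own probe set were few, 3 of 15 listed being bright enough to test. In D- 0, 0 and 1 of them rose at 2, 6 and 24 h, against 0, 2 and 3 in WT. For this and the lists below, 9.0%, 16.1% and 16.9% of all genes were called higher at those times in D-. In WT 11.2%, 19.0% and 26.2% were. The shares called lower were 13.2%, 15.5% and 17.6% in D-, and 13.8%, 19.0% and 27.4% in WT. Gbp6 measured 8.14, 5.79 and 4.41 in D- and 6.63, 10.34 and 10.23 in WT at 6 h, and its WT mean was 9.07 at 6 h against 4.80 untreated (adjusted p = 0.000976). Iigp1, an IRG effector, was 5.02, 4.09 and 4.53 in D- and 4.44, 8.38 and 8.36 in WT at 6 h. Its WT mean was 7.06 at 6 h against 3.52 untreated (adjusted p = 0.00156). Iigp1 met the filter through treated arrays alone, so its call partly follows from the filter. As with Gbp2, the highest D- array at 6 h and the lowest WT array were both replicate 1. Gbp8 rose at 24 h by 2.14 in D- and by 2.35 in WT.

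Among the other IRF genes 4 were tested, with 0 called in D- at any time and 1 in WT at each time. Of all genes, 11.2%, 19.0% and 26.2% were called higher in WT at 2, 6 and 24 h. The gene called in WT was Irf9, the DNA-binding part of the type I interferon complex, at 2 h (-0.14 in D-, not called, and 0.63 in WT). It was Irf2, an IRF that competes with IRF1, at 6 h (0.69 in D-, not called, and 1.19 in WT) and 24 h (0.50 in D-, not called, and 0.91 in WT). Irf3 and Irf5 were not called in either line.

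Of 12 interferon receptor and signalling genes tested, 7 rose and 1 fell at 2 h and again at 6 h in D- and in WT, and at 24 h 8 rose in D- and 9 in WT. Jak2, a kinase of the interferon gamma receptor, rose by 0.77, 1.96 and 2.59 in D- and by 0.78, 1.58 and 2.22 in WT at 2, 6 and 24 h. Ifnar1, the interferon alpha receptor chain, rose by 1.70, 1.81 and 2.14 in D- and by 2.22, 2.23 and 2.71 in WT. Socs3, a feedback inhibitor, fell at 6 h in both lines, with -1.76 in D- and -0.95 in WT. Stat2 rose at 24 h by 0.98 in D- and 1.37 in WT. The interferon gamma receptor chains rose at 24 h, Ifngr1 by 2.81 in D- and 3.30 in WT, and Ifngr2 by 1.90 in D- and 2.05 in WT. The list's median change at 24 h was 1.03 in D- and 1.56 in WT, against -0.02 in D- and 0.00 in WT over all genes.

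Interferon gamma and IRF1 are known to induce genes of antigen presentation. Of 12 tested, 0, 3 and 7 rose at 2, 6 and 24 h in D- (1, 1 and 0 fell) and 0, 5 and 7 in WT (3, 2 and 0 fell). Tapbp, the peptide-loading chaperone tapasin, rose by 1.24 at 24 h in D- and by 1.97 in WT. Tap1, the peptide transporter, rose at 6 h by 0.78 in D- and 1.31 in WT. Psmb9, an immunoproteasome subunit, was not called at any time, with 0.48 in D- and -0.21 in WT at 24 h. Psmb8, another such subunit, rose by 0.47 in D-, and its WT change of 0.27 was not called. B2m, the invariant class I chain, rose at 24 h by 0.44 in D- and 0.62 in WT. Tap2 fell at 2 h, with -1.46 in D- and -1.32 in WT. The median change at 24 h was 0.46 in D- and 0.64 in WT.

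Type I interferon-stimulated genes did not move as 1 group. Of 21 tested, 3 rose and 6 fell at 2 h in D-, and 3 rose and 3 fell in WT. At 6 h 3 rose and 3 fell in D-, and 10 rose and 3 fell in WT, and at 24 h 6 rose and 2 fell in D-, and 12 rose and 2 fell in WT. Ifit1 rose at 2 h, by 1.22 in D- and 1.82 in WT. Mx1 rose in D- at 24 h, by 1.64, with a change of 0.03 in WT, and the D- minus WT difference was called (1.61, adjusted p = 0.00304). The median change at 6 h was 0.24 in D- and 0.64 in WT. The group mean of Ifi204 was lower at 24 h in both lines, but the D- arrays overlapped. They ran from 4.79 to 8.39 treated and from 7.17 to 10.45 untreated, with means of 6.14 and 8.88. In WT the arrays did not overlap, with means of 4.90 treated, under log2 5, and 9.26 untreated. Of 12 activators and partners of IRF proteins, 2 rose and 0 fell in D- at 24 h, and 3 rose and 1 fell in WT. Those that rose were near the share of all genes called higher, 16.9% in D- and 26.2% in WT. Sting1 rose at 24 h, by 1.11 in D- and 2.09 in WT, and Batf rose at 2 h, by 1.77 in D- and 1.36 in WT. Of 11 T cell markers tested, 1 rose and 4 fell at 2 h in D-, and 2 rose and 3 fell in WT. At 6 h 1 rose and 4 fell in D-, and 3 rose and 3 fell in WT. At 24 h 3 rose and 0 fell in D-, and 6 rose and 2 fell in WT. The 2 that fell in WT at 24 h were Thy1, with -0.77, and Cd2, with -1.29, against -0.04 and -0.10 in D-, which were not called.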

How the data were processed

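RNA from 26 S49 samples was measured on 1-colour Affymetrix mouse arrays. The deposited values are intensities on a linear scale, summarised with GCRMA per the submitters' processing notes, and its version is not given in the sources used here. That method shares information between arrays and pulls dim probe sets to a common floor, which compresses low values. The table held 22690 probe sets, of which 64 controls were left out, 20380 carried 1 gene symbol, 691 several and 1555 none. The authors' deposited intensities were put on the log2 scale here, and probe sets at log2 5 or more on at least 3 arrays were kept (12724 probe sets, 7435 genes, each by its brightest probe set).

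A limma 3.58.1 model (R 4.3.3) was fitted to 8 group means with 14 contrasts and Benjamini-Hochberg adjustment within each. A gene counted as called when its adjusted p was under 0.05 and not all its group means were under 5. The fit was tested on simulated data. The number of arrays limits the precision. The arrays' clusters were defined from these data, not from the labels. Replicate numbers were not used to pair arrays.

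All members were named, with genes of lists on other IRF genes, other GBP and IRG genes, interferon ligands, receptors and signalling, antigen presentation, type I interferon-stimulated genes, IRF partners and cell type markers: up to 3 called genes per list, line and time by size at 2 and 24 h, a fixed set, and the 3 genes most like each member. Examples outside this rule were chosen after their values were seen. The members and lists were chosen with earlier results of these data known. Alternatives were other filters, offsets, normalizations, probe set rules, array weights, blocks, subsets of arrays and each array left out. Promoters came from RefSeq (GRCm38.p6) and were scanned in Python 3.11.15, and figures were drawn with matplotlib 3.10.9.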

Additional observations from a re-analysis of the deposited data

Results flagged for a closer look

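In untreated D- cells the highest Irgm1 array, at 8.64, stood apart from the other 3 (7.94 to 8.00), and the lowest Irgm2 array, at 5.09, stood apart from the other 3 (5.41 to 5.46). Both gaps passed Dixon's test among 13 groups of 4 arrays, where chance gives about 1 in 20. The dimmer Irf8 probe set responded more in D- than in WT at 24 h, with a fitted difference of 1.76 ± 0.52 (SE, limma adjusted p = 0.0283), and its untreated D- mean was under log2 5. The brighter Irf8 probe set gave 0.66 ± 0.49 (adjusted p = 0.456).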

How the results depend on the processing

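Over 2272 single-gene alternatives, 2162 kept their side of the threshold, 35 lost the call and 75 gained it. A change of sign was counted only where the main or the alternative result was called, and 0 such changes were found. Sign changes between uncalled results, as in the D- minus WT response within cluster 1, are among the 2162. With array weights the counts of called genes became 2 at 24 h in D-, 2, 5 and 3 for the D- minus WT response at 2, 6 and 24 h, and 6 for WT 24 h against 6 h. With only the groups compared in the fit they became 4 at 24 h in D-, 1 between untreated lines, 1 for the response difference at 24 h and 1 for WT 24 h against 6 h. The share of all genes called was not taken with array weights or with only the groups compared. Whether those changed counts are particular to the 8 genes was not tested. Within cluster 2 the counts became 4 at 24 h in D- (41.2% of all genes called) and 5, 6 and 4 for the response difference (0.794%, 1.98% and 17.8%). There they became 5 for WT 6 h against 2 h (28.2%) and 6 for WT 24 h against 6 h (41.8%). Counts within cluster 1 are not given, as each treated group there holds 1 array. The cause was not tested, although the smaller sets hold fewer arrays.

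Leaving out each array in turn gave 3 to 4, 4 to 6 and 1 to 1 called genes at 2, 6 and 24 h in D-, and 4 to 5, 7 to 8 and 4 to 6 in WT. The response difference gave 0 to 1, 0 to 0 and 0 to 1. WT 6 h against 2 h gave 3 to 5 (5 without WT 2 h replicate 1), and WT 24 h against 6 h gave 1 to 6 (6 without WT 6 h replicate 1, and 1 without WT 6 h replicate 2 or 3 or WT 24 h replicate 1). D- 6 h against 2 h gave 3 to 4 and D- 24 h against 6 h gave 2 to 3. Same-number arrays correlated with a median of 0.266 and a lowest of -0.468, against a median of -0.205 for other numbers. Medians were 0.274 within and -0.299 between the array clusters, which replicate number partly follows. The axis that split the clusters held 38.8% of the variance left after group means, and the main fit has no term for it. With the replicate number as a block the counts were the same except 4 in place of 3 for WT 6 h against 2 h. With the array cluster as a block the only changed call was Irf1 over that step (limma adjusted p = 0.0351). All genes called in WT at 2 h went from 1855 to 2449 with that block. Levels under log2 5 limit Gbp2, Irf7 and untreated Irgm2.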
